A study of Mus musculus with 4 samples.

Results

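The genes described here are 9 Toll-like receptor genes of the mouse (Tlr1, Tlr2, Tlr3, Tlr4, Tlr6, Tlr7, Tlr8, Tlr9 and Tlr13) together with Ly86, which encodes MD-1, the secreted partner of the receptor-like protein encoded by Cd180. They were taken by symbol from the probe annotation of a whole-transcript microarray. All 10 had 1 probe set with a single gene symbol, so 10 of 19938 genes were followed. The study grew bone marrow cells with the growth factor GM-CSF and asked, by its title, how heme acts on the repressor Bach1 and the transcription factor gene Spic. There were 4 groups with 1 array each. Cells of genotype Bach1 (-/-) were given heme, cells of genotype Bach1 (-/-) its vehicle, cells of genotype Bach1 (+/+), the wild type (WT), heme, and WT cells vehicle. All 4 groups shared the B6 background, GM-CSF at 20 ng/ml for 6 days, a medium with fetal calf serum and a vehicle of salt with NH4OH. Heme was added at 40 µM (the labels print a lower-case m), and the RNA came from cells still adherent 24 hours later. How many animals gave the marrow is not stated in the labels. With 1 array per group there is no replicate error, so no p-value is given and each difference describes a pair of arrays.

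Toll-like receptors recognise conserved microbial molecules and pass the signal through adaptors such as MyD88 and TRIF to NF-kB and interferon regulatory factors. TLR1, TLR2, TLR4 and TLR6 act at the cell surface, where TLR2 pairs with TLR1 or TLR6 to recognise lipoproteins and TLR4 recognises lipopolysaccharide with MD-2 and CD14. TLR3, TLR7, TLR8, TLR9 and TLR13 act in endosomes on nucleic acids, and reach them with the chaperone UNC93B1. MD-1 is a relative of MD-2 and pairs with RP105, the product of Cd180, a relative of TLR4 that has been described as a restraint on TLR4 signalling in mouse macrophages and dendritic cells. Heme itself has been described as an activator of TLR4 in mouse macrophages.

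Sequence is shown for the promoters of Ly86 and Tlr8, the genes that differed by 2-fold or more in a comparison of heme with vehicle or of the genotypes, and of Tlr9, the one window among the members that held the core motif of AP-1 and of Bach1 with small Maf proteins. Each line gives the 250 bases before the RefSeq start (GRCm38.p6), read on the strand of the gene, with matches to TGANTCA or GAGGAA on either strand in capitals. GAGGAA is the core bound by PU.1 and Spi-C. The Ly86 window is chr13:37345095-37345344 on the plus strand, the Tlr8 window chrX:167264330-167264579 on the minus strand, and the Tlr9 window chr9:106222348-106222597 on the plus strand.
Ly86: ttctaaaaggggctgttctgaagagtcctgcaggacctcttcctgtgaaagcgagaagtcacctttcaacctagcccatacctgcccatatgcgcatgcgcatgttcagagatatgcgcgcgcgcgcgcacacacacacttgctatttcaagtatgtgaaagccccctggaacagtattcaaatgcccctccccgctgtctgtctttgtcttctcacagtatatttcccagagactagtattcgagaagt
Tlr8: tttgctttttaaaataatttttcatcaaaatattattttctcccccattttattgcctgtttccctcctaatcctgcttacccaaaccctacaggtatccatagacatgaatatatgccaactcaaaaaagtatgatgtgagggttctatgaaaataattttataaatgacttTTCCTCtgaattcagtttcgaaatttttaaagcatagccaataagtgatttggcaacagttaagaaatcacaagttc
Tlr9: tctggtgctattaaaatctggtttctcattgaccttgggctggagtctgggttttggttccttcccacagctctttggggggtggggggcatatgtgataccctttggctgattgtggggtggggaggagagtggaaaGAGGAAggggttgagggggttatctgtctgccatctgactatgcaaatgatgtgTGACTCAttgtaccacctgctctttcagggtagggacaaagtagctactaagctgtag
The Ly86 window held neither motif. The Tlr8 window held 1 GAGGAA on the opposite strand, beginning 77 bases before the start, and the Tlr9 window held 1 TGANTCA at 58 bases and 1 GAGGAA at 112 bases before the start, which do not overlap. Promoter windows were found for 8 of the 10 members, with 10 windows in all. TGANTCA stood in 1 of these 10 windows and in 6.75% of all 32851 windows of this length, and GAGGAA in 4 of 10 and in 23.3%. Another 3 motifs were searched on both strands. The 1 fixed form of the NF-kB motif that was searched stood in the Tlr3 window alone and in 1.41% of all windows. CACGTG, 1 form of the E-box, stood in 1 Tlr1 window and in 6.02%. The searched form of the motif of interferon regulatory factors stood in 1 Tlr6 window and in 2.98%. Other forms of the NF-kB, E-box and interferon regulatory factor motifs were not searched. Their absence from the other windows, that of Tlr2 among them, was therefore not shown. These matches describe letters, and binding was not measured.

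The values were RMA signals on a linear scale, with array medians between 30.4 and 31.4. A gene is called at level below if the brighter of the compared arrays reached 30.96, the median of all values, and differences of 2-fold or more were counted. As a scale for the log2 differences, the robust SD over all genes at level lay between 0.25 and 0.28 for the 4 pairs of arrays, and it holds noise and real differences together. Tlr1 stayed below 30.96 on every array, so 9 of the 10 members were at level. Hmox1, the heme-degrading enzyme, read 10330 and 9047 on the Bach1 (-/-) arrays with heme and vehicle, and 9881 and 1827 on the WT arrays with heme and vehicle. Spic, which encodes Spi-C, read 678.5 and 298 on the Bach1 (-/-) arrays, against 429 and 17.02 on the WT arrays, so that the WT vehicle array was the lowest at both genes. The Bach1 probe set read 204 and 211 on the Bach1 (-/-) arrays, against 264 and 212 on the WT arrays, with heme named first in each pair. No label says whether its probes lie in the deleted part, so it does not check the genotypes, and the genotype named below is the labelled one. All 9 measured macrophage markers were at level on at least 1 array, with a summed signal between 19020 and 20535, of which Lyz2 gave between 9990.3 and 10705. With heme in WT cells 8 of these 9 had negative log2 differences, where 51.3% of genes at level were negative. The median of the 9 was -0.019, beside -0.008 over all genes at level. Of the dendritic cell markers, Flt3, Zbtb46, Dpp4, Xcr1 and Cd209a were below the level filter on all arrays, as were 8 of 9 B cell markers, 8 of 9 T and NK cell markers, 9 of 10 mast cell and basophil markers, the plasmacytoid dendritic cell markers Siglech and Pacsin1, and the neutrophil marker Elane.

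Ly86 and Tlr8 were the members with differences of 2-fold or more in the comparisons of heme with vehicle or of the genotypes. Over all 4 arrays, the highest signal was 3.40-fold above the lowest at Ly86, 2.72-fold at Tlr8 and 2.19-fold at Tlr2, whose extremes were WT cells with heme and Bach1 (-/-) cells with vehicle, and between 1.24-fold and 1.65-fold at the other 7 genes. With heme in WT cells, 2 of the 9 members at level were lower than in vehicle by 2-fold or more, Ly86 and Tlr8, and 0 were higher, where 0.891% of 10772 genes were lower and 1.17% higher (2.06% in either direction). With heme in Bach1 (-/-) cells, 0 members reached 2-fold, where 1.65% of 10843 genes did (1.20% upward and 0.452% downward). In heme, 1 member, Tlr8, was higher in Bach1 (-/-) than in WT cells and 0 were lower, where 0.519% of 10790 genes were higher and 0.973% lower (1.49% in either direction). In vehicle, 1 member, Ly86, was lower in Bach1 (-/-) than in WT cells and 0 were higher, where 1.14% of 10859 genes were lower and 0.525% higher (1.67% in either direction). With so few members, these counts are not a statement about the family as a whole.

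**Figure D1:**
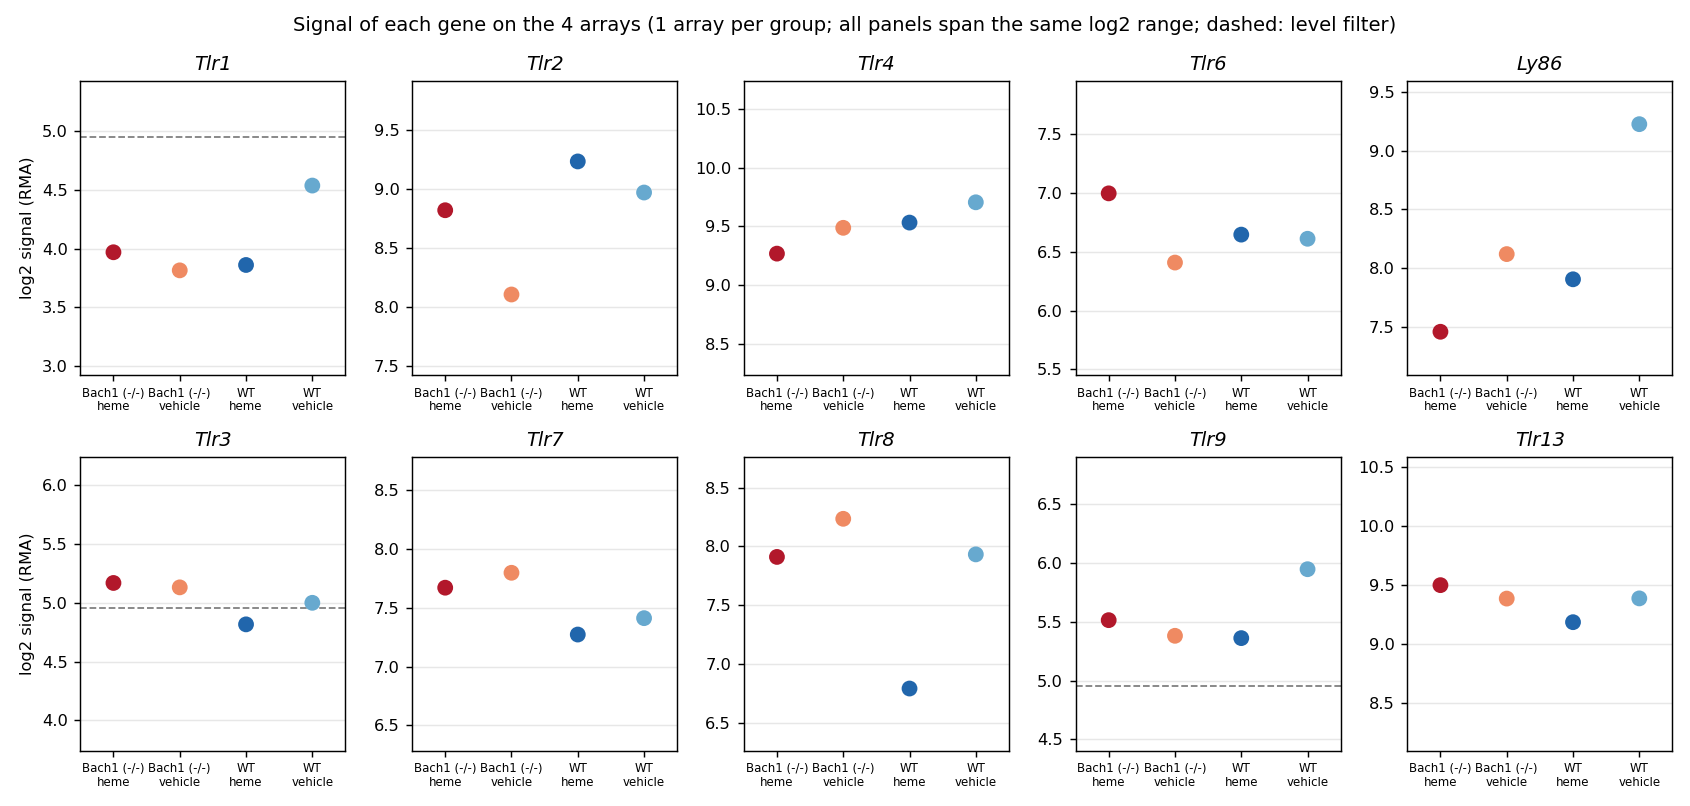
Log2 RMA signal (vertical axis) of each gene on the 4 arrays (horizontal axis, 1 point per array, 1 array per group), with the level filter as a dashed line where it falls in the panel. Ly86 is highest on the WT vehicle array (598) and Tlr8 lowest on the WT heme array (111), while Tlr4 and Tlr13 differ little between arrays.

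Ly86 read 176 and 278 in Bach1 (-/-) cells with heme and vehicle, and 239.6 and 598 in WT cells with heme and vehicle. The WT vehicle array was alone at the high end, 1.11 log2 units above the next array, and the other 3 arrays lay within 0.66 log2 units. Heme-treated WT cells were 2.50-fold below vehicle-treated WT cells (log2 difference -1.32), a size reached by 0.863% of genes at level. Bach1 (-/-) cells in vehicle were 2.15-fold below WT cells in vehicle (-1.11). Both of these differences use the WT vehicle array. In the comparisons without it, Ly86 was also lower, by less than 2-fold: 1.58-fold with heme in Bach1 (-/-) cells, and 1.36-fold in Bach1 (-/-) against WT cells in heme. Of 11155 genes at level on any array, 14 (0.126%) had the WT vehicle array 2-fold or more above every other.

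Markers of other cells stood as follows beside Ly86. The summed signal of the 10 dendritic cell markers was 2132 and 2782.5 in Bach1 (-/-) cells with heme and vehicle, and 5515 and 7110 in WT cells with heme and vehicle, so its highest value was on the same array as that of Ly86. Most of that sum came from Cd74 (829 and 877 in Bach1 (-/-) cells, against 2879 and 3399 in WT cells) and H2-Ab1 (538 and 656 in Bach1 (-/-) cells, against 1607 and 2087.5 in WT cells), the antigen-presentation genes of the list. Itgax, the gene of CD11c in that list, read 547 and 972 in Bach1 (-/-) cells, against 741 and 1340.3 in WT cells. The other 2 dendritic cell markers at level had other courses. Clec9a was highest on the Bach1 (-/-) vehicle array (101 and 161 in Bach1 (-/-) cells, against 83.1 and 100.6 in WT cells), and Ccr7 on the WT heme array (44.5 and 35.2 in Bach1 (-/-) cells, against 119 and 90.7 in WT cells). Of the macrophage markers, Fcgr1 moved with Ly86, at 59.7 and 84.7 in Bach1 (-/-) cells with heme and vehicle, against 83.3 and 237 in WT cells with heme and vehicle. Mertk, Itgam and Csf1r were also highest on the WT vehicle array, but only by 0.09, 0.02 and 0.003 log2 units over the next array. Others on that list had other courses. Cd14 was lowest on the WT vehicle array, Adgre1 was highest on the Bach1 (-/-) heme array, and Cd68, Lyz2 and Mrc1 were highest on the Bach1 (-/-) vehicle array. For Bach1 (-/-) against WT cells in vehicle, 5 of the 9 measured macrophage markers were positive and 4 negative, with a median log2 difference of 0.06. The B cell list, of which Vpreb1 alone was at level, summed to 145 and 143 in Bach1 (-/-) cells and to 138 and 135 in WT cells. The part of these markers in the Ly86 difference was not tested, and in RNA of a whole culture fewer cells of a type and less RNA per cell cannot be told apart.

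The partner of MD-1 did not show the Ly86 pattern at 2-fold. Cd180 read 840.3 and 853 in Bach1 (-/-) cells with heme and vehicle, against 607 and 805 in WT cells with heme and vehicle. Its lowest array was WT heme, and heme differed from vehicle there by -0.41 on the log2 scale. Ly96, which encodes MD-2, read 276 and 172 in Bach1 (-/-) cells, against 156 and 183 in WT cells, so that the Bach1 (-/-) heme array stood above the other 3. Its log2 difference with heme was 0.68 in Bach1 (-/-) and -0.24 in WT cells, and 0.83 between Bach1 (-/-) and WT cells in heme. Cd14, the co-receptor that hands lipopolysaccharide to TLR4, read 975 and 733 in Bach1 (-/-) cells, against 1034 and 583 in WT cells. Both heme arrays lay above both vehicle arrays at Cd14, by 0.41 in Bach1 (-/-) and 0.83 in WT cells on the log2 scale.

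Tlr2, the lipoprotein receptor, read 452 and 275 in Bach1 (-/-) cells with heme and vehicle, against 603 and 502 in WT cells with heme and vehicle. The Bach1 (-/-) vehicle array was the lowest and both WT arrays lay above both Bach1 (-/-) arrays. In vehicle, Bach1 (-/-) cells were 1.82-fold below WT cells, just inside 2-fold, and 2.46% of genes at level differed by as much. With heme, the log2 difference from vehicle was 0.72 in Bach1 (-/-) and 0.26 in WT cells. In heme, Bach1 (-/-) cells were 1.33-fold below WT cells. Neutrophils also carry Tlr2. The summed signal of 10 neutrophil markers, 9 of them at level, was 9706 and 7266 in Bach1 (-/-) cells with heme and vehicle, against 12411 and 9129 in WT cells with heme and vehicle. That sum was lowest and highest on the same arrays as Tlr2, but most of it was S100a8 and S100a9 (4381 and 3989 in Bach1 (-/-) cells with heme). Of the 9 markers at level, these and Ly6g were lowest on the Bach1 (-/-) vehicle array, and the others were lowest on the WT vehicle array. Retnlg, for example, read 224 and 133 in Bach1 (-/-) cells with heme and vehicle, against 120.1 and 51.7 in WT cells with heme and vehicle. The part of these markers in the Tlr2 values was not tested.

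The 2 genes whose products pair with TLR2 lie next to each other on chromosome 5, with 0 genes between them in the RefSeq table. Tlr6 read 128 and 85.0 in Bach1 (-/-) cells with heme and vehicle, against 100.2 and 97.8 in WT cells with heme and vehicle. Its lowest array was Bach1 (-/-) with vehicle, as at Tlr2, while its highest was Bach1 (-/-) with heme. Its log2 difference with heme was 0.59 in Bach1 (-/-) and 0.04 in WT cells, and that between Bach1 (-/-) and WT cells was 0.35 in heme and -0.20 in vehicle, all under 2-fold. Tlr1 read 15.7 and 14.1 in Bach1 (-/-) cells, against 14.5 and 23.2 in WT cells. The WT vehicle array was the highest at Tlr1, but all 4 values lie below the level filter, where the distance from background is unknown.

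Tlr4, the lipopolysaccharide receptor, varied little. It read 616 and 718 in Bach1 (-/-) cells with heme and vehicle, against 740.3 and 834 in WT cells with heme and vehicle, and its highest array was 1.35-fold above its lowest. Heme arrays were below vehicle arrays in both genotypes, by -0.22 in Bach1 (-/-) and -0.17 in WT cells on the log2 scale, both smaller than the robust SD of all genes.

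**Figure D2:**
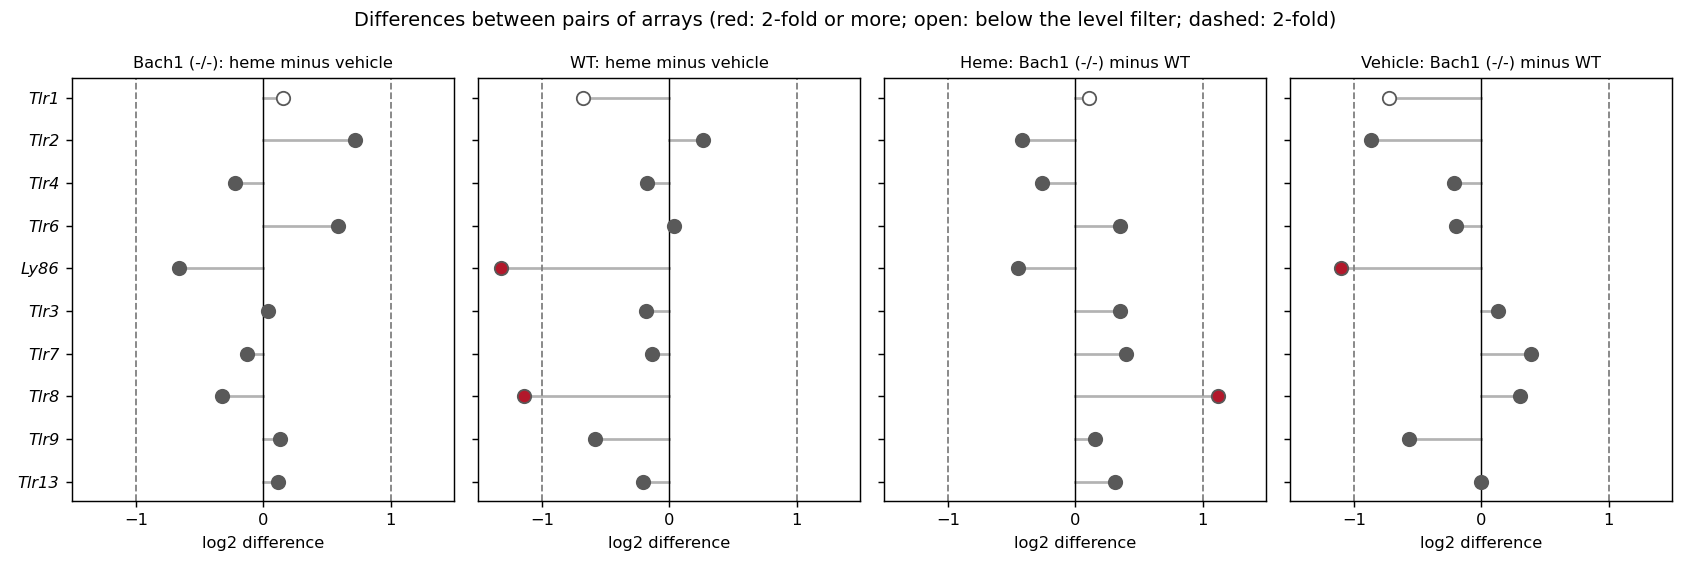
Log2 difference (horizontal axis) of each gene (rows) in the 4 comparisons of array pairs, with dashed lines at 2-fold. Ly86 and Tlr8 lie beyond 2-fold with heme in WT cells (-1.32 and -1.14), and Tlr8 is on the other side of zero for Bach1 (-/-) against WT cells in heme (1.12).

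Among the endosomal receptors, Tlr8, an RNA sensor best characterised in human cells, had the widest range. It read 241 and 301 in Bach1 (-/-) cells with heme and vehicle, against 111 and 244 in WT cells with heme and vehicle. The WT heme array was alone at the low end, 1.12 log2 units below the next array. Heme-treated WT cells were 2.21-fold below vehicle-treated WT cells (-1.14), and in heme, Bach1 (-/-) cells were 2.17-fold above WT cells (1.12). Both differences use the WT heme array. In the comparisons without it, the log2 difference was -0.32 with heme in Bach1 (-/-) cells and 0.30 between Bach1 (-/-) and WT cells in vehicle, each under 2-fold. The WT heme array was 2-fold or more below every other array at 8 of 11155 genes (0.0717%).

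Tlr7, a sensor of single-stranded RNA, is the neighbour of Tlr8 on the X chromosome, with 0 genes between them in the RefSeq table. It read 204 and 223 in Bach1 (-/-) cells with heme and vehicle, against 155 and 170.4 in WT cells with heme and vehicle. Both Bach1 (-/-) arrays lay above both WT arrays, by 0.40 in heme and 0.39 in vehicle on the log2 scale. Heme differed from vehicle by -0.13 in Bach1 (-/-) and -0.14 in WT cells, so the 2-fold difference at Tlr8 in WT cells was not seen at its neighbour.

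Tlr9, which recognises unmethylated CpG DNA, read 45.7 and 41.7 in Bach1 (-/-) cells with heme and vehicle, against 41.1 and 61.7 in WT cells with heme and vehicle. The WT vehicle array was the highest and the other 3 lay close together. The log2 difference with heme was 0.13 in Bach1 (-/-) and -0.59 in WT cells. Plasmacytoid dendritic cells and B cells are strong sources of Tlr9. The summed plasmacytoid markers were 598 and 673 in Bach1 (-/-) cells with heme and vehicle, and 693 and 684 in WT cells with heme and vehicle. That sum was highest on the WT heme array, where Tlr9 was lowest. Most of that sum was Bst2 (412 in WT cells with heme), which other cells express too, and Siglech was below the level filter throughout. The part of these cells in the Tlr9 values was not tested.

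Tlr3, the receptor for double-stranded RNA, read 35.98 and 35.1 in Bach1 (-/-) cells with heme and vehicle, against 28.2 and 32.01 in WT cells with heme and vehicle, and so lay about the level filter on every array. Tlr13, a mouse receptor for bacterial ribosomal RNA, read 724 and 668 in Bach1 (-/-) cells, against 582 and 669 in WT cells. Its lowest array was WT heme, and its highest was 1.24-fold above it. At both genes the largest log2 difference was that between Bach1 (-/-) and WT cells in heme, 0.35 for Tlr3 and 0.32 for Tlr13.

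The endosomal genes leaned one way in the comparisons that use the WT heme array. With heme in WT cells, all 5 had a negative log2 difference, between -1.14 and -0.14, where 51.3% of genes at level were negative. In heme, all 5 were higher in Bach1 (-/-) than in WT cells, between 0.15 and 1.12, where 52.0% of genes at level were positive. This lean was not particular to the receptors. In the list of endosomal proteases described below, all 8 genes were negative with heme in WT cells, and 6 of 8 were higher in Bach1 (-/-) than in WT cells in heme. Receptor partner and trafficking genes showed no clear lean. Of 14 at level, 9 were negative and 8 were higher in these comparisons, beside 51.3% negative and 52.0% positive of all genes at level. The 2 comparisons share the WT heme array, which was the lowest array for each of the 5 endosomal receptor genes. In the comparisons without it, 3 of 5 were positive with heme in Bach1 (-/-) cells and 3 of 5 were positive for Bach1 (-/-) against WT cells in vehicle, where Tlr13 stood at -0.0017 and was positive after quantile normalization applied again (0.066) and after lowess centring (0.063). In the comparison of heme responses, Bach1 (-/-) minus WT, 8 of 9 members at level were positive, all but Tlr4 (-0.05), where 54.4% of all 11155 genes at level were positive. Tlr7 (0.01) turned negative after quantile normalization applied again (-0.04) and lowess centring (-0.06). The median was 0.45 over these 9 against 0.03 over all genes at level. This comparison uses the WT heme array too. Of the 9, 0 reached 2-fold there, where 2.04% of genes did, 1.17% upward and 0.879% downward. The largest were Tlr8 (0.82) and Tlr9 (0.72).

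**Figure D3:**
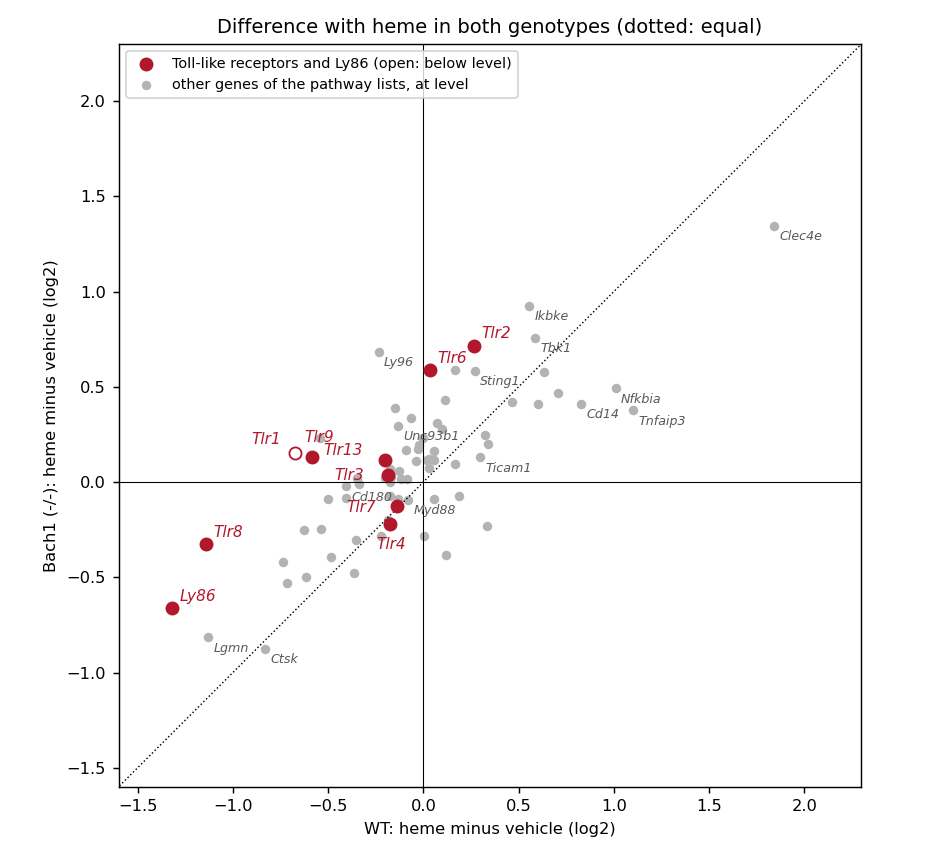
Log2 difference of heme from vehicle in WT cells (horizontal axis) and in Bach1 (-/-) cells (vertical axis) for the Toll-like receptors and Ly86 (red, with Tlr1 open as it lies below the level filter) and for the other genes of the pathway lists at level (grey), with a dotted line where both are equal. Of the members at level, 8 of 9 lie above the dotted line (Tlr7 below it after quantile normalization applied again or lowess centring), and Ly86 and Tlr8 lie farthest to the left.

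The median log2 difference of the 9 members at level was 0.04 with heme in Bach1 (-/-) cells and -0.18 with heme in WT cells, beside 0.02 and -0.01 over all genes at level. For Bach1 (-/-) against WT cells it was 0.32 in heme and -0.20 in vehicle, beside 0.01 and -0.02 over all genes at level.

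**Figure D4:**
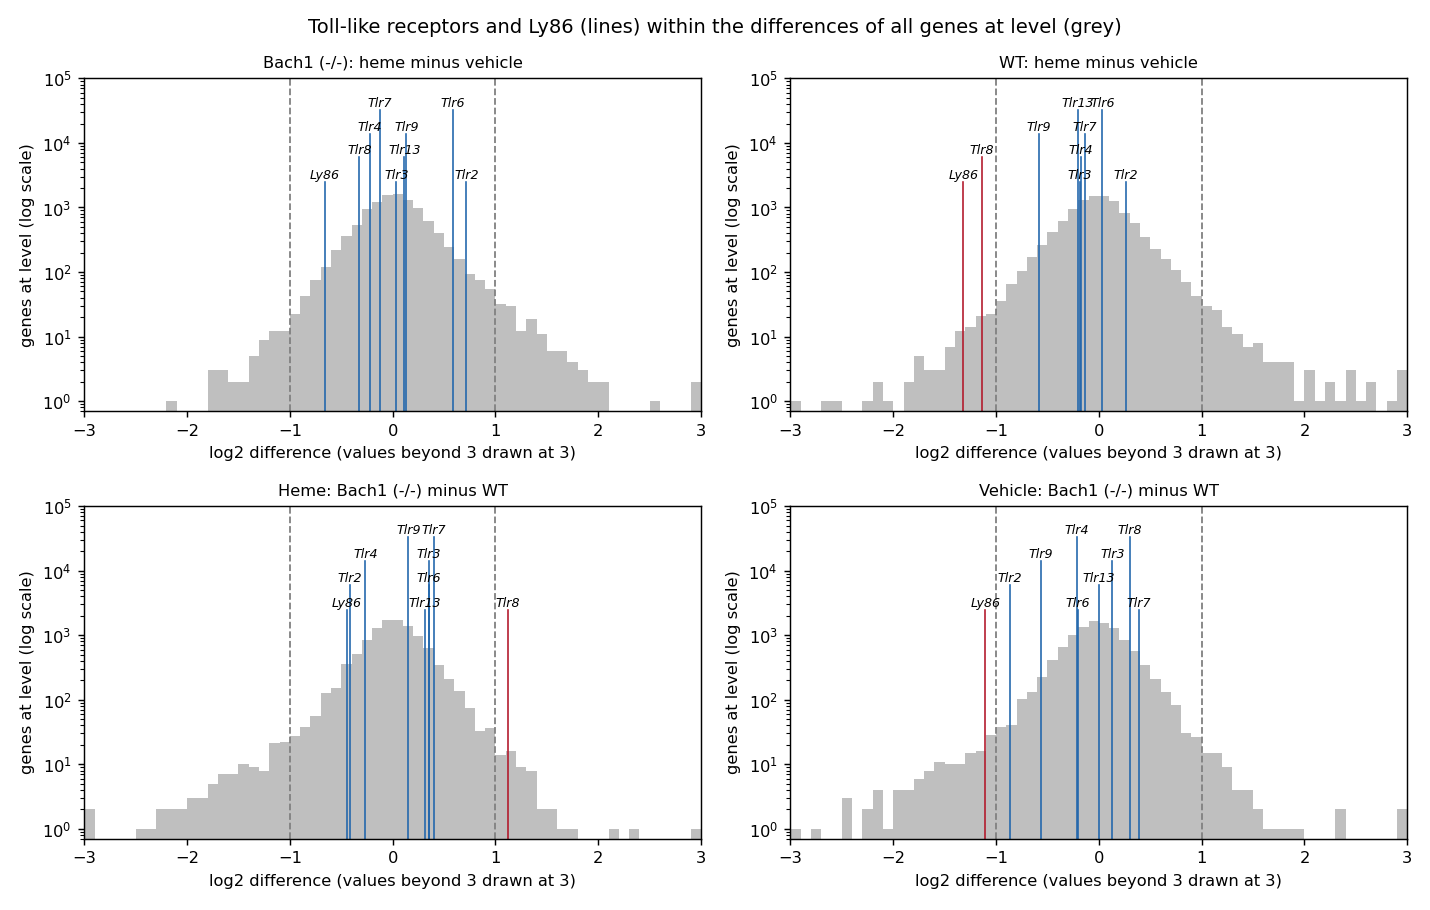
Number of genes at level (vertical axis, log scale) by log2 difference (horizontal axis) in the 4 comparisons, with vertical lines for the members at level (red at 2-fold or more, line heights only separate the names). Apart from Ly86 and Tlr8 the lines lie within 2-fold, the nearest to it being Tlr2 in vehicle (-0.87).

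Genes that act with the receptors were followed in 5 lists, of which most members stayed within 2-fold. Of 15 receptor partners and trafficking genes, 14 were at level and 0 reached 2-fold in any of the 4 comparisons. Unc93b1, the chaperone of the endosomal receptors, read 1002 and 816 in Bach1 (-/-) cells with heme and vehicle, against 758 and 831 in WT cells with heme and vehicle. Of the adaptors, kinases and transcription factors, 22 of 25 were measured and 20 were at level, and 0 reached 2-fold. Myd88 read 150.0 and 159.9 in Bach1 (-/-) cells, against 184 and 195 in WT cells, and Ticam1, which encodes TRIF, read 180.2 and 165 in Bach1 (-/-) cells, against 166 and 135 in WT cells. The largest in that list were the kinases of the interferon branch, with log2 differences from vehicle of 0.93 in Bach1 (-/-) and 0.55 in WT cells for Ikbke and of 0.76 in Bach1 (-/-) and 0.58 in WT cells for Tbk1.

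The list of endosomal proteases holds cathepsins and asparagine endopeptidase (Lgmn), some of which cleave endosomal Toll-like receptors, and also Cst3, which encodes cystatin C, an inhibitor of cathepsins and not a protease. With heme in WT cells all 8, Cst3 (-0.41) among them, had negative log2 differences, with a median of -0.47, and 1 was lower by 2-fold, where 0.891% of all genes at level were. That gene, Lgmn, read 520.2 and 915 in Bach1 (-/-) cells with heme and vehicle, against 561 and 1228 in WT cells with heme and vehicle. With heme in Bach1 (-/-) cells 7 of 8 were negative, with a median of -0.29, and 0 reached 2-fold. Ctsk, cathepsin K, had log2 differences of -0.87 in Bach1 (-/-) and -0.83 in WT cells.

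Genes that restrain Toll-like receptor signalling contained 2 of 14 at level that were 2-fold higher with heme in WT cells and 0 that were lower, where 1.17% of all genes at level were higher and 0.891% lower. Tnfaip3, the ubiquitin-editing enzyme A20, read 94.6 and 72.8 in Bach1 (-/-) cells with heme and vehicle, against 219.8 and 103 in WT cells with heme and vehicle. Nfkbia, the NF-kB inhibitor, read 423 and 301 in Bach1 (-/-) cells, against 831 and 413 in WT cells. With heme in Bach1 (-/-) cells 0 reached 2-fold, and in heme Tnfaip3 was 2-fold lower in Bach1 (-/-) than in WT cells (-1.22). The list median was 0.22 with heme in Bach1 (-/-) and 0.18 in WT cells. The summed neutrophil markers were also higher on the heme array than on the vehicle array in both genotypes, and their part in these values was not tested.

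Other sensors of microbial products were measured for 12 genes, 11 of them at level, and 1 reached 2-fold. Clec4e, which encodes the lectin receptor Mincle, read 395 and 156 in Bach1 (-/-) cells with heme and vehicle, against 661 and 184 in WT cells with heme and vehicle, and was higher with heme in both genotypes (1.34 and 1.84). Sting1, the adaptor of cytosolic DNA sensing, read 164 and 109 in Bach1 (-/-) cells, against 229 and 189.7 in WT cells, and like Tlr2 had its lowest value on the Bach1 (-/-) vehicle array. Of the other Toll-like receptor genes, Tlr12 alone was measured, and it read between 11.8 and 19.8, below the level filter, while Tlr5 and Tlr11 were not analysed here.

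**Figure D5:**
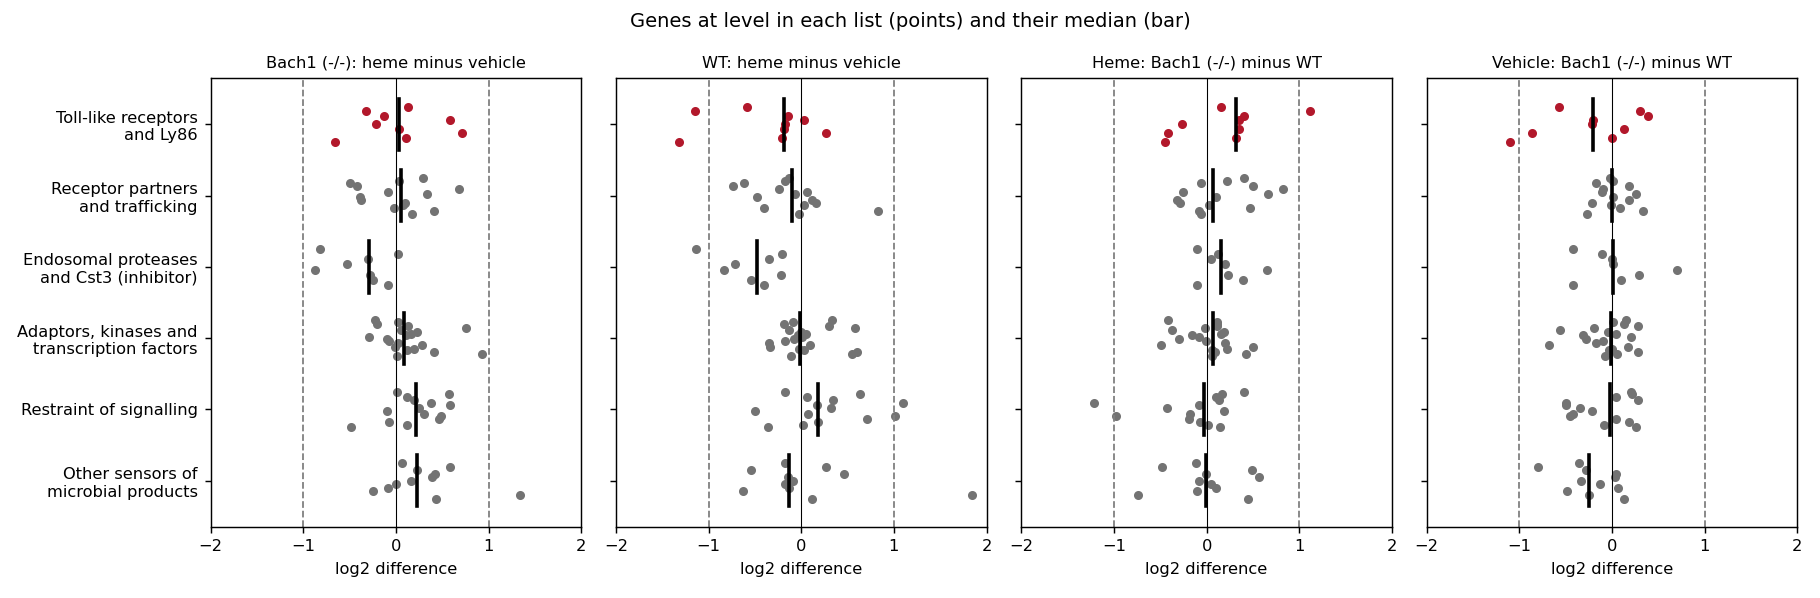
Log2 difference (horizontal axis) of the genes at level in each list (rows, 1 point per gene) with the list median as a bar, in the 4 comparisons, and dashed lines at 2-fold. The endosomal proteases with the inhibitor gene Cst3 have the lowest median of the lists with heme in WT cells (-0.47) and lie left of zero there for all 8 genes.

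The genes with the most similar course over the 4 arrays were found by the distance between log2 values centred on the mean of each gene, among genes at level that varied by 2-fold or more over the arrays. For Ly86, among 646 genes, these were Mras, a small GTPase (distance 0.14), Fcgr1, the high-affinity Fc receptor for IgG (0.27), and the chemokine Ccl2 (0.30). Mras read 142 and 239 in Bach1 (-/-) cells with heme and vehicle, against 209 and 462 in WT cells with heme and vehicle, which is the order of arrays seen at Ly86. For Tlr8 they were Zranb3 (0.13), Tpgs2 (0.16) and Iqgap2 (0.18), and Iqgap2 read 160.0 and 210.1 in Bach1 (-/-) cells, against 85.6 and 161 in WT cells. For Tlr2 they were Sting1 (0.09), the amino acid transporter gene Slc7a5 (0.13) and Tgfbi (0.18). For Tlr6 they were Akr1c13 (0.30), Riok2 (0.35) and Tsr2 (0.36). Since the genes searched had to vary by 2-fold and Tlr6 varied by less, its distances are not comparable with the others. With 4 arrays, such likeness describes these arrays and was not tested.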

How the data were processed

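Gene expression was measured on a mouse whole-transcript array, 1 array for each of 4 groups. The deposited intensity values are linear signals after RMA, per the labels' processing notes from the submitters. RMA includes background correction and quantile normalization, which makes overall distributions between arrays alike. They were not equal here, with array medians between 30.4 and 31.4. Groups follow the sample labels, since the series-level design describes another cell source (sorted GMP and MPP). The signals were converted to log2 without further scaling, and genes were named from the platform annotation (21789 of 35556 probe sets with a single symbol, 19938 genes), and the probe set with the highest mean was kept. No detection calls came with the values, so distance from background is unknown, and the number of arrays limits precision.

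A gene was at level when the brightest array compared reached log2 4.95, and it counted as changed at 2-fold or more. No p-value was computed. All 10 members were named. From the pathway lists, genes at 2-fold, the 2 largest differences of each list and Cd14, Ly96, Cd180, Unc93b1, Myd88 and Ticam1 were named. Genes most like a member were searched for the 4 members at level with the widest range. The members, lists and motifs were chosen with earlier results of these data known. In the last list, 3 of the 15 names are other symbols of listed genes, and Irak4, Traf3, Chuk and Il1rl1 were not analysed here. The calls were tried on simulated data with changes larger than those of the members, so recovery of differences near 2-fold was not examined. Promoter sequences and the positions of their windows are from RefSeq (GRCm38.p6), and gene positions beyond the chromosome are not given. Computation was in Python 3.11.15 with pandas 2.3.3 and numpy 2.4.6, lowess came from statsmodels 0.14.6, and figures were drawn with matplotlib 3.10.9.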

Additional observations from a re-analysis of the deposited data

Results flagged for a closer look

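Several genes had log2 differences of opposite sign in the 2 groups of a contrast. With 1 array per group these differences were not tested. With heme, the Bach1 (-/-) cells were positive and the WT cells negative at Tlr9 (difference of responses 0.72), Tlr13 (0.32), Tlr3 (0.22), Ly96 (0.92) and Unc93b1 (0.43). For Bach1 (-/-) against WT cells, the sign differed between heme and vehicle, being positive in heme and negative in vehicle, at Tlr9 (0.72), Tlr6 (0.55), Tlr13 (0.32), Ly96 (0.92) and Unc93b1 (0.43). In vehicle Tlr13 (-0.0017) and Unc93b1 (-0.03) were near 0, and both were positive after quantile normalization applied again (0.066 and 0.036) and lowess centring (0.063 and 0.040), so that their signs no longer differed. At Cd14 it was negative in heme and positive in vehicle (-0.42).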

How the results depend on the processing

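Each choice was changed alone. The rule was set at 1.5-fold or at 3-fold, the level filter was dropped or raised to the 75th percentile of signal, arrays were quantile-normalized once more or centred by lowess, 32 was added before log2, or probe sets of 1 gene were averaged. The 5 medians moved by less than the robust SD of all genes under all 8, both over the members at level and over all 10. The fold rules and the averaging of probe sets could move neither, and the level filters could not move the medians over all 10. The median at level with heme in Bach1 (-/-) cells turned to -0.13 with the 75th percentile filter. With 32 added, which lowers folds by its construction, Tlr8 lost 2-fold in both of its comparisons, with log2 differences of -0.95 with heme in WT cells and 0.93 between genotypes in heme: 1 member was then lower with heme in WT cells, and 0 were higher in Bach1 (-/-) than in WT cells in heme. Under the 3-fold rule the counts were 0 lower with heme in WT, 0 higher for Bach1 (-/-) against WT in heme and 0 lower in vehicle. Under the 1.5-fold rule, 2 members were higher and 1 lower with heme in Bach1 (-/-) cells, and 3 were lower with heme in WT cells. By the same rule 2 were lower in Bach1 (-/-) than in WT cells in vehicle, and 3 differed upward between heme responses. Tlr6 with heme in Bach1 (-/-) cells (1.504-fold) and Tlr9 with heme in WT cells (1.501-fold) passed only at the edge. In these comparisons, 7.91% and 9.65% of genes at level differed by as much in either direction. Shares of all genes by direction, and for the other comparisons, are not given for this rule. Ly86 kept 2-fold with heme in WT cells and in vehicle between genotypes under the other scalings, with log2 differences from -1.32 to -1.21 and from -1.11 to -1.02. Over all genes, counts at 2-fold lay between 161 and 228 in the 5 comparisons, between 735 and 1273 at 1.5-fold, between 27 and 49 at 3-fold, between 34 and 87 with 32 added, between 56 and 137 at the 75th percentile and between 192 and 366 without a level filter. Of 400 single differences of the members, 397 moved by less than that SD and 3, all of Tlr1 with 32 added, by more. The fold rules and level filters do not enter a single difference, and averaging cannot move it where each member has 1 probe set. Only repeated quantile normalization, lowess centring and the added 32 could move these values. In all, 4 changed sign under repeated quantile normalization and lowess centring. These were Tlr7 between heme responses and Tlr13 between genotypes in vehicle, both near 0. Without detection calls, signals near the level filter, such as those of Tlr3, limit what can be read. No paired analysis was possible because each group holds 1 array, and for the same reason no array could be left out.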

Other observations

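The genes that stood with Ly86 and Tlr8 in being set apart on 1 array were picked by that pattern after their values were seen, and are given as values. On the WT vehicle array, the 14 genes 2-fold or more above every other array included, beside Ly86, the complement genes C1qa, C1qb and C1qc, the Fc receptor gene Fcgr1, the related Fcrls, and Ms4a7 and Ms4a6c. Fcrls read 39.1 and 76.7 in Bach1 (-/-) cells with heme and vehicle, against 135 and 341 in WT cells with heme and vehicle. On the WT heme array, the 8 genes 2-fold or more below every other array were Tlr8, Bex1, Ms4a7, Pros1, Rgs1, Siglec1, Slco2b1 and Tpgs2. Siglec1, which encodes the macrophage lectin sialoadhesin, read 133 and 206 in Bach1 (-/-) cells, against 59.4 and 127 in WT cells, and Pros1, which encodes protein S, read 88.7 and 129 in Bach1 (-/-) cells, against 41.2 and 133 in WT cells. Ms4a7 was in both sets.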
